A study of Homo sapiens with 2 samples.

Results

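The NF-kappaB and TNF response genes described here are 9 human genes: the subunit genes NFKB1, NFKB2, RELA and RELB, the inhibitor genes NFKBIA and TNFAIP3, and the TNF response genes TNFAIP2, TNF and CXCL8. They were chosen by name, and each was given a window of its gene body and 20 kb on either side on the genome build hg19. The windows held 32 of the 20085 peaks of the deposited list, and no peak was shared between windows. The peaks come from NB4 cells with no stated treatment, an established human line of acute promyelocytic leukemia that carries the fusion of the PML and RARA genes. CUT&Tag was run on them with a PML-RARA antibody in 2 replicates, which make up 1 group. In this assay an antibody guides a transposase that cuts and tags the DNA next to the bound protein. The authors merged both replicates into 1 list that holds a single value per peak. Neither the spread between replicates nor a test between conditions can therefore be given. Sequencing depth is unknown, and no control antibody library was analysed here. The antibody list measures no RNA, so it does not show whether any of these genes was expressed.

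NF-kappaB is a family of dimeric transcription factors that inhibitor proteins keep out of the nucleus until a signal such as TNF or a bacterial product leads to the breakdown of the inhibitor. NFKBIA and TNFAIP3 are themselves switched on by NF-kappaB and close a negative feedback loop, while TNF and CXCL8 carry the inflammatory signal to other cells. In a separate branch, the precursor encoded by NFKB2 is processed and its product pairs with RELB. In myeloid cells the pathway is known for cytokine production and for survival.

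RefSeq promoter windows, which run from 250 bases before to 50 after an annotated start on GRCh38.p14, were at hand for 8 of the 9 genes; RELB had none. The kappaB motif, the DNA element that NF-kappaB dimers bind, was searched on both strands. It was found in at least 1 window of 4 of the 8 genes (NFKB1, NFKB2, NFKBIA and TNFAIP3), against 13.3% of the 27305 genes with a window. Genes differ in their number of windows, and more windows give more chances of a match. Of all 35116 windows, 11.3% held one. The pattern searched was GGGRNNYYCC, where R is A or G, Y is C or T and N is any base. Runs that differ from it by 1 base were not counted, such as tggaatttcc in CXCL8 and gggtttctcc in TNF. The 250 bases before the start are shown for 5 genes, 3 with a match to this pattern and 2 without one. Of these, NFKBIA, TNFAIP3 and TNF had a listed peak at the start, and NFKB1 and CXCL8 had none. Capitals mark kappaB matches, and all runs read 5′ to 3′ on the strand of the gene.
NFKBIA, chr14:35404750-35404999, minus strand: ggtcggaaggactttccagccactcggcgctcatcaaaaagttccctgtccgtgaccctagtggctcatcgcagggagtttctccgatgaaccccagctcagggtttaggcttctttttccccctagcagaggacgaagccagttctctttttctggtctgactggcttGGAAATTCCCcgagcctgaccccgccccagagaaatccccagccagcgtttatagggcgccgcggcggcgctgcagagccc
TNFAIP3, chr6:137867009-137867258, plus strand: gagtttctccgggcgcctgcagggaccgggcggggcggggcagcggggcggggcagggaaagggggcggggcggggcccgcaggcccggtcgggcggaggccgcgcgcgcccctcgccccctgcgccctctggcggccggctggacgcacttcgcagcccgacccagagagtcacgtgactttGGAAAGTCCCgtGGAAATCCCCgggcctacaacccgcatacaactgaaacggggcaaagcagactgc
NFKB1, chr4:102501109-102501358, plus strand: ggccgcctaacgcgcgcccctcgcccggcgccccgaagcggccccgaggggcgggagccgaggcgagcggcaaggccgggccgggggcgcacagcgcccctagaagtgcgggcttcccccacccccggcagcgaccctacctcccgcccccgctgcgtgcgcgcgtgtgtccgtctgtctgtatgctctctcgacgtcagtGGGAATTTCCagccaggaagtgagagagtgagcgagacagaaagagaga
TNF, chr6:31575315-31575564, plus strand: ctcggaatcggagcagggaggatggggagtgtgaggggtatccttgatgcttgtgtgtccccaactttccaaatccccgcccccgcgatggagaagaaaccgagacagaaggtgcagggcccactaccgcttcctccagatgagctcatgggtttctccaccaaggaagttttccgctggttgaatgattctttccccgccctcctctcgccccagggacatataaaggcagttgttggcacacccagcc
CXCL8, chr4:73740319-73740568, plus strand: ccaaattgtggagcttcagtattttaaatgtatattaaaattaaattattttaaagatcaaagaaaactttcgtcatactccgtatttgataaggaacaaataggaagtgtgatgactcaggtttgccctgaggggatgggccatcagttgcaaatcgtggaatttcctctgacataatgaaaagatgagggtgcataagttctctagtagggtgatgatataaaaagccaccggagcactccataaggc

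The match of NFKB1 lay 49 to 40 bases before its start and read GGGAATTTCC on its own strand, the same letters as the match of NFKBIA, which lay 81 to 72 bases before the start. TNFAIP3 held a pair of matches, at 67 to 58 and 55 to 46 bases before the start. NFKB2 has 3 RefSeq windows. The most upstream one held no match, the next held 3 matches, of which a pair overlapped each other, and the last held 2. A stretch of 30 bases from each of the last 2 windows shows the kind of match, the first with the overlapping pair, since such a window may reach into an exon of another transcript.
NFKB2, chr10:102394461-102394490, plus strand: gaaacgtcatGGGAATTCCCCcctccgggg
NFKB2, chr10:102395674-102395703, plus strand: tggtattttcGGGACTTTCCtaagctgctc

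A match is a description of the letters and not a site of binding, and the lack of a match does not show that no site is there. The hexamer AGGTCA, a half-site of retinoic acid receptors, was found in a window of 1 of the 8 genes, TNFAIP2, in the bases after its start, and 16.5% of all genes held it. The core GGAA of the ETS factors was in a window of 8 of 8 genes and of 96.3% of all genes. By base composition the windows ran from 39.3% G and C with 4 CpG dinucleotides in CXCL8 to 77.0% with 48 CpG in the downstream window of RELA. The median of all windows was 58.7% with 14 CpG. The outermost window of NFKB1, at 71.3% and 35 CpG, was rich in both, as was that of TNFAIP3 at 73.7% and 35 CpG. Thus the pair of genes without a listed peak, NFKB1 and CXCL8, stood far apart in promoter composition. NFKB1 held a match to the kappaB pattern and CXCL8 none, though a run in CXCL8 differs from the pattern by 1 base.

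Peaks were listed at 7 of the 9 genes, and each of these 7 had a peak within 2 kb of its start. NFKB1 and CXCL8 had no listed peak anywhere in their windows. As a background, 427 genes with gene models in installed software, labelled hg19 or read here as hg19, were given the same windows: 60.7% of them had a peak in the window and 40.3% had one within 2 kb of the start. Among the 321 protein-coding genes of that set the shares were 64.8% and 45.2%. These genes are software examples and no random draw, and 9 members are few, so the counts are set side by side without a test. The same 7 genes had a start peak with windows of 1, 5 and 10 kb, where 38.6, 43.3 and 48.7% of the background genes had one. The rule gives gene positions to 1 kb, and that is the precision of the distances to a start below.

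**Figure D1:**
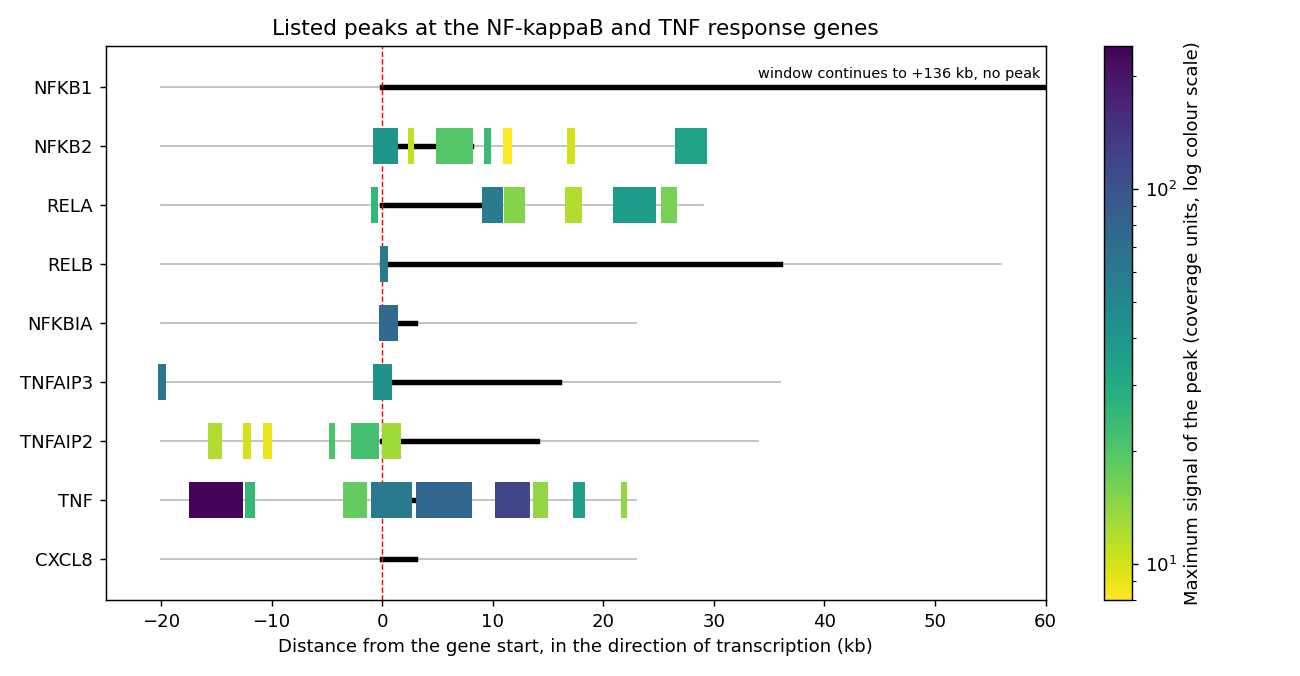
Peaks (boxes) along each window, with distance from the gene start in kb on the x axis, the gene body as a black line, the 20 kb flanks in grey, and colour for the maximum signal on a log scale. Of the 7 genes with peaks, each has one at or next to the start, NFKB2, RELA, TNFAIP2 and TNF have 6 to 9 in all, and NFKB1 and CXCL8 have none; the axis ends at 60 kb and the remaining part of the NFKB1 window also holds none.

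Of the 4 subunit genes, 3 had peaks, 14 in all, with widely different layouts. NFKB2, which encodes the precursor used in the branch with RELB, lies on chromosome 10 between 104154 and 104162 kb. Its window held 7 peaks with total signals of 17469, 3030, 18088, 3973, 2731, 3383 and 29147 in order along the gene. Total signal is read here as the coverage summed over the bases of a peak and maximum signal as its highest coverage. The authors headed these columns width and peak, and no source used here states this reading. The first of the 7, at 104153153 to 104155455 (maximum 40), lay over the start: by a gene model of NFKB2 read as hg19, which starts at 104154335, it reached 1182 bp upstream and 1120 bp downstream. The third, at 104158867 to 104162239, was the longest at 3372 bp but low, with a maximum of 20, and covered the 3′ part of the gene. The strongest, at 104180442 to 104183352 (maximum 34), lay 26.4 kb past the start in the downstream flank, where PSD, FBXL15 and CUEDC2 are the next protein-coding genes. No peak lay in the 20 kb upstream by midpoint. The peaks of NFKB2 were thus many and of mixed strength. By total signal, 4 of the 7 were below the median of the whole list (6479), and 3 were above its upper quartile of 13912.

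RELA encodes the subunit with the strong activation domain and lies on the minus strand of chromosome 11, between 65421 and 65430 kb. Its window held 6 peaks, and by midpoint 5 of them lay past its 3′ end, in the direction of SIPA1, the next protein-coding gene. From the 3′ end outward their totals were 24255, 12163, 7169, 44754 and 7816. The strongest, at 65405254 to 65409105, was 3851 bp long with a maximum of 37, and the one touching the 3′ end, at 65419104 to 65421001, was the highest with a maximum of 58. The single peak at the start, at 65430353 to 65430994, was short (641 bp) and had a total of 7397 and a maximum of 25. It lay 353 bp from the start as the rule gives it. RELA was the only one of the 7 genes with peaks whose start position did not fall inside one, by a distance under the 1 kb rounding. The downstream flank held 92.9% of the signal of the window.

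RELB encodes the partner of the processed NFKB2 product and lies on chromosome 19 between 45505 and 45541 kb. Its window of 76 kb held 1 peak, at 45504844 to 45505511, over the start. With 667 bp it was shorter than the median peak of the list (893 bp), yet its maximum was 58 and its signal per base 20.5, against list medians of 22 and 7.53. Its total of 13705 ranked 5095 of 20085. The remaining gene body of RELB held no listed peak. The layout differed from that of NFKB2: 1 narrow, tall peak in place of 7 of mixed strength.

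NFKB1 encodes the precursor of the subunit that pairs with the RELA protein, and lies on chromosome 4 between 103422 and 103538 kb. No peak was listed in its window of 156 kb, the longest of the 9. The nearest peaks stood 155177 bp upstream, at 103265582 to 103266823 (total 11411), and 117482 bp past the 3′ end, at 103655482 to 103656095 (total 4000). The gap between them was 389 kb, against a median gap of the list of 14768 bp. Longer still were 6.41% of all gaps and 14.5% of the gaps on chromosome 4. A gap that holds this whole gene must exceed that median. The shares count each gap once whatever its length, so they do not measure how rare the gap is. An empty long window was common among the background genes: of 48 with a window at least as long, 25 held no peak. The cytogenetic band of NFKB1, 4q24, held 8 peaks or 1.21 per Mb, below the median of 3.44 per Mb over 784 bands.

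Both inhibitor genes carried a peak over the start, and their windows held 3 peaks in all. NFKBIA encodes the classical inhibitor that holds the dimers in the cytoplasm and lies on the minus strand of chromosome 14, between 35871 and 35874 kb. Its only peak, at 35872531 to 35874252, covered the start and the 5′ part of this short gene. The total was 26260 and the maximum 75, the highest maximum of any of the 9 peaks at a start, and by total it ranked 2393 of the list. TNFAIP3 encodes a ubiquitin-editing enzyme that shuts the pathway down and lies on chromosome 6 between 138188 and 138204 kb. Its start lay under a peak at 138187205 to 138188926 with a total of 21447 and a maximum of 43. The other, at 138167714 to 138168431, lay 19.6 kb upstream at the edge of the window. It was short (717 bp) and tall (maximum 64, total 15648), with the highest signal per base (21.8) of any peak here outside the TNF window. Both start peaks of the inhibitors had the same length, 1721 bp. As shown above, the promoters of both genes hold kappaB matches close to the start. NFKB2 also held matches and had a start peak, while NFKB1 held one and had no listed peak. RELA, TNFAIP2 and TNF held no match in their windows and had a listed peak at the start all the same.

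Among the TNF response genes, TNF had the most peaks and the most signal of all 9 genes. TNF encodes the cytokine itself and lies on chromosome 6 between 31543 and 31546 kb, within the major histocompatibility complex. Its window of 43 kb held 9 peaks, which covered 53.2% of it, with a summed total of 468411. That was 60.9% of the signal of all 32 peaks, and it exceeded the summed total of 426 of the 427 background windows. The strongest peak, at 31525558 to 31530389, lay 12.6 kb upstream of the start, on the side where LTA and then NFKBIL1 are the next protein-coding genes. With a total of 217211 and a maximum of 231 it ranked 50 of 20085 by total and 136 by maximum. The next strongest lay downstream, on the side of LTB and LST1. One was at 31553179 to 31556383 (total 90323, maximum 118, rank 308 by total). The other was at 31546042 to 31551149 (total 78745, maximum 79, rank 413 by total). LTA and LTB encode the lymphotoxins, close relatives of TNF, and LST1 a small leukocyte protein.

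The start and body of TNF itself lay under a peak at 31542035 to 31545733 with a total of 40525 and a maximum of 60. Its total, rank 1287 of the list, was the highest of any start peak here. A weaker one, at 31539500 to 31541593, ended 1407 bp before the start, with a total of 12663 and a maximum of 18. The other 4 peaks had totals from 2883 to 11581. The gene body takes up 3 kb of the window and each flank 20 kb. The gene body peak held 8.65% of the signal of the window, the upstream flank 50.5% and the downstream flank 40.8%. Most of the signal counted for TNF by the window therefore lay outside its gene body, and the list alone assigns no peak to a gene. The peaks belonged to a run of 12 with gaps of at most 10 kb, from 31509267 to 31565168, with a summed total of 512629; 0.783% of the 11245 runs of the list, single peaks included, had as many peaks or more.

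TNFAIP2 encodes a cytoplasmic protein that TNF induces, and retinoic acid has been described to induce it in promyelocytic leukemia cells. It lies on chromosome 14 between 103590 and 103604 kb, and its window held 6 peaks, 5 of them upstream by midpoint. In order toward and over the start their totals were 5833, 3153, 3291, 3997, 18789 and 6903, and their maxima 12, 10, 9, 21, 22 and 13. The strongest, at 103587147 to 103589743, ended 257 bp before the start, and the last, at 103589973 to 103591724, covered it. None of the 6 exceeded the list's median maximum of 22. By maximum signal the peaks formed a low chain that stopped shortly after the start, with none in the remaining gene body or downstream flank. By total signal the strongest was above the list's upper quartile of 13912. The peak over the start was above the list's median of 6479, and the others were below it.

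CXCL8, the gene of the main neutrophil-attracting chemokine, lies on chromosome 4 between 74606 and 74609 kb and had no listed peak in its window. The nearest, at 74573409 to 74573872 (total 2800, maximum 14), lay 32128 bp upstream, and one next to it at 74570146 to 74571056 had a total of 9602 and a maximum of 40. Past the 3′ end the next peak was 1830275 bp away. In that direction the next protein-coding genes are CXCL6, PF4V1 and CXCL1, of the same chemokine cluster. The peak-free stretch round CXCL8 spanned 1865 kb, and 1.65% of the gaps of the list and 4.95% of those on chromosome 4 were longer. These shares count each gap once. A long gap is more likely to hold a given gene, so they do not measure how rare this stretch is. Among the background genes, 60.7% had a peak in the window. The band of CXCL8, 4q13.3, held 8 peaks, or 1.38 per Mb. A gene without a listed peak is below the threshold of the authors' caller, and at an unknown depth this does not show that signal was absent.

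**Figure D2:**
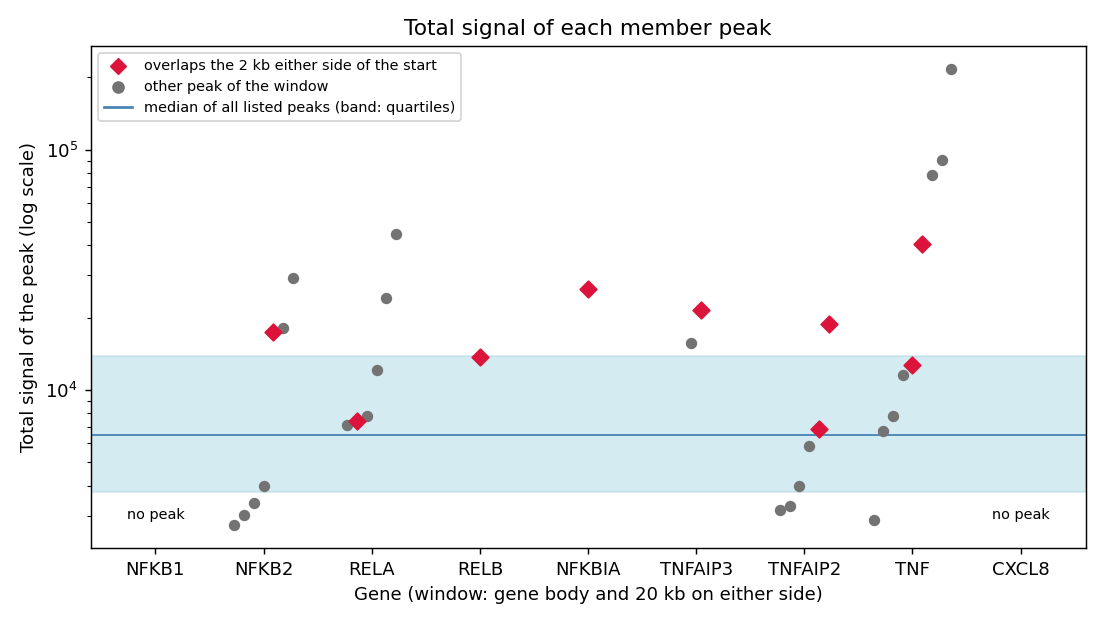
Total signal (y axis, log scale) of each of the 32 peaks by gene, with diamonds for peaks that overlap the 2 kb either side of a start, circles for the others, and the median and quartiles of all 20085 peaks as a line and band. The start peaks all lie above the list's median of 6479, and the 3 strongest peaks, of 78745 to 217211, are away from the start in the TNF window.

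The 9 peaks at starts had a higher median total signal than the list, and the 23 others were closer to it. The median total was 17469 (6903 to 40525) at starts and 7761 (2731 to 217211) elsewhere, against 6479 over all 20085 peaks (quartiles 3755 and 13912). All 9 start peaks and 14 of the 23 others were above that median. At the starts of the background genes lay 192 peaks, of which 59.4% were above it, and their median total was 8188 (quartiles 4518 and 14893). By height the start peaks had a median maximum of 40 and the others one of 20, against 22 over the list, and 6 of 9 and 10 of 23 exceeded 22. The start peaks of the background genes had a median maximum of 23.5 and a median length of 940 bp. The 9 peaks come from 7 genes, since TNFAIP2 and TNF had 2 each. Peaks of greater length have more chance of reaching into a start window, and the median length was 1751 bp at starts, 1279 bp elsewhere and 893 bp over the list; the part of length in the difference was not tested.

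Over all 32 peaks the median total of 11872 was 1.83 times that of the list, and without the TNF window it was 7816, or 1.21 times. The member peaks differed from the list in length more than in height. The median length was 1.68 times that of the list (1503 bp), while the median maximum (23) was 1.05 times and the median signal per base (7.39) 0.981 times the list's. In the top 10% of the list by total signal were 5 of the 32, or 15.6%, against 10.0% by definition. Of these 5, 4 lay in the TNF window and the other was the RELA peak with a total of 44754. By maximum signal 4 of the 32 were in the top 10% (9.99% of the list, ties counted below), and by signal per base likewise 4 (10.0%). Without the TNF window 1 of 23 peaks was in the top 10% by total.

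**Figure D3:**
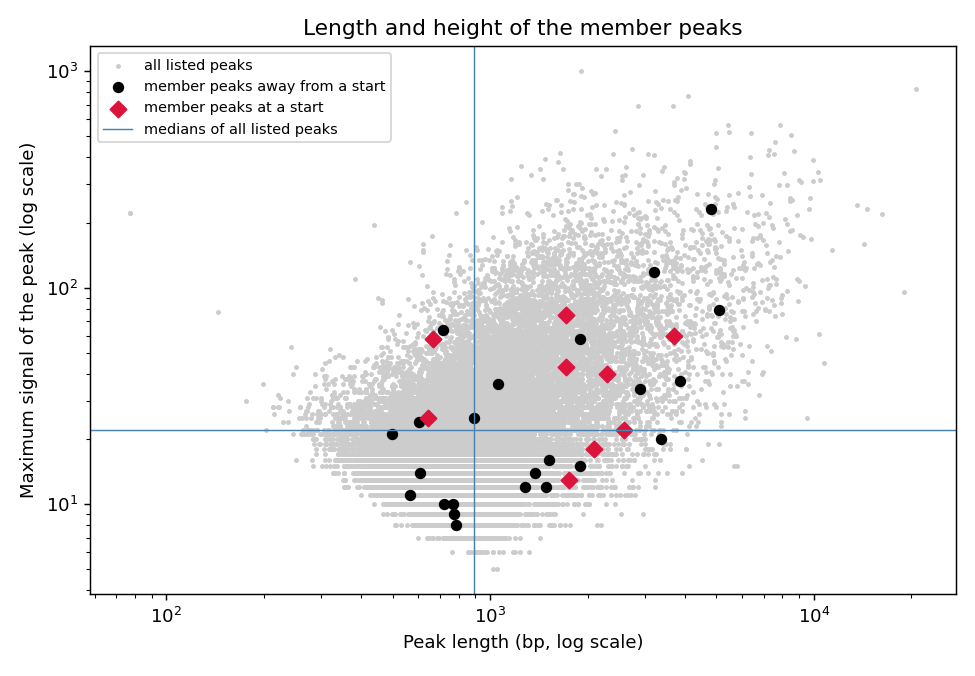
Length (x axis, bp, log scale) and maximum signal (y axis, log scale) of all 20085 peaks in grey and of the 32 member peaks in black and, at starts, as red diamonds; lines mark the list's medians of 893 bp and 22. The member peaks spread over the upper and lower part alike (16 of 32 above a maximum of 22), and 20 of 32 lie to the right of the median length.

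The windows ranged from empty to densely covered when they were set against the 427 background genes. Peaks covered 53.2% of the window of TNF, 23.04% of that of RELA, 20.7% of that of NFKB2 and 14.1% of that of TNFAIP2. The background median was 0.963%, and 406 to 426 of the 427 background windows had less than these 4. NFKBIA and TNFAIP3 had 4.002% and 3.84%, above 328 and 327 of them, and RELB had 0.878%, above 209. All 9 windows together had 9.91% under peaks. Peaks per 10 kb ran from 0 through 0.132 in RELB and 0.233 in NFKBIA to 2.09 in TNF, beside a background median of 0.108. The windows differ in length, from 43 to 156 kb, and gene bodies, which make up most of a long window, held fewer peaks than flanks in the background (0.0999 per 10 kb against 0.313 upstream).

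**Figure D4:**
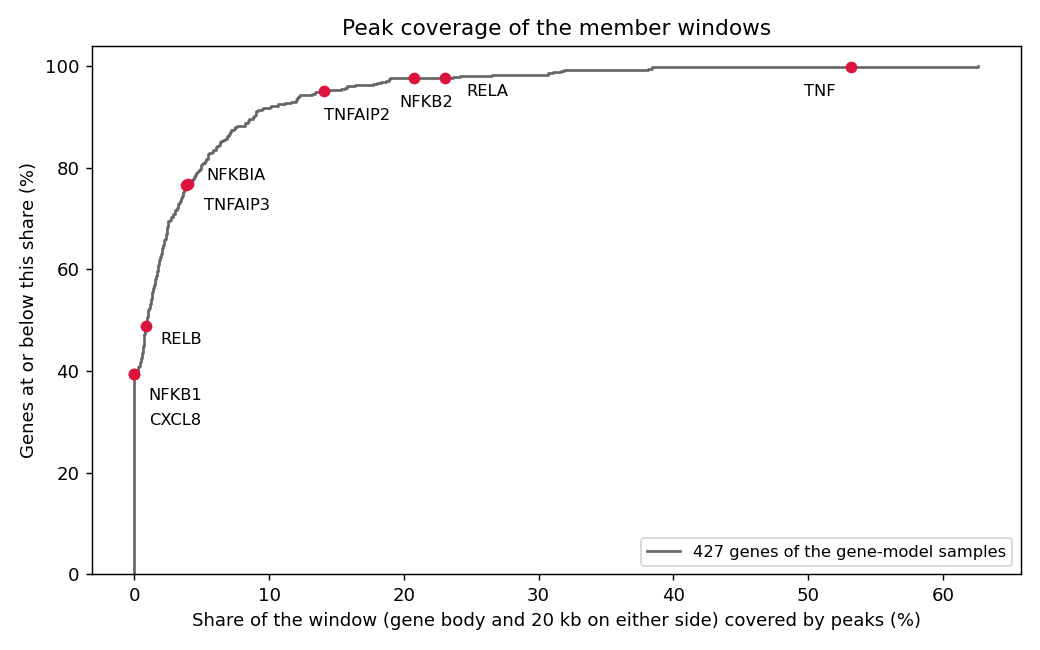
Share of the window covered by peaks (x axis, percent) against the percentage of the 427 background genes at or below that share (y axis), with the 9 members as red points on the curve. TNF stands at the far right with 53.2%, RELA, NFKB2 and TNFAIP2 follow at 23.04, 20.7 and 14.1%, and NFKB1 and CXCL8 sit at 0 with the background genes that have no peak.

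By position, the members' peaks were spread over upstream flanks (10 peaks, 0.556 per 10 kb), gene bodies (8 peaks, 0.385 per 10 kb) and downstream flanks (14 peaks, 0.778 per 10 kb). In the background genes the order was different, with 0.313 per 10 kb upstream, 0.0999 in bodies and 0.261 downstream. The downstream peaks came from RELA and TNF with 5 each and NFKB2 with 4, and the other 6 genes had none there. TNFAIP2 had the reverse layout, with 5 upstream. Of the signal outside the TNF window, 45.1% was downstream, 35.6% in bodies and 19.3% upstream.

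The dense windows also stood in cytogenetic bands of high peak density. For RELA the band was 11q13.1, which had 227 peaks or 90.8 per Mb and ranked 2 of 784, and that of RELB, 19q13.32, had 56.8 per Mb and ranked 5, although RELB itself had 1 peak. TNF (6p21.33, 42.4 per Mb), TNFAIP2 (14q32.32, 31.3 per Mb) and NFKB2 (10q24.32, 27.4 per Mb) ranked 17, 40 and 49. NFKBIA (14q13.2, 10.0 per Mb) and TNFAIP3 (6q23.3, 5.00 per Mb) ranked 194 and 316. NFKB1 and CXCL8, at 1.21 and 1.38 per Mb, ranked 572 and 550, the lowest of the 9. A dense neighbourhood and a dense window went together except at RELB, and the part of the neighbourhood in the values of each gene was not tested. The band counts include the peaks of the windows themselves, so the measures are not independent. The band of TNFAIP2, for example, held 25 peaks and its window 6.

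Other genes of the pathway could be placed by band only, apart from RELT and TLR2, which had gene models (that of RELT read as hg19). RELT, a receptor of the TNF receptor family, had 8 peaks in its window with a summed total of 108997, and its strongest start peak had a total of 31571 and a maximum of 60. TLR2, a receptor for bacterial lipoproteins, had none, and its nearest peak was 217177 bp from the start. Of 51 further pathway genes, 46 lay in bands of like length in both builds, and 36 of these (78.3%) were in a band with more peaks per Mb than the median band (3.45), against 73.7% of 18752 protein-coding genes. The median over the 46 genes was 10.6 per Mb, and over all protein-coding genes 9.91. By role, 8 of 8 kinases, 7 of 8 inhibitors, 5 of 6 adaptors, 5 of 8 receptors, 11 of 15 targets and 0 of 1 subunit (REL) were above the median band. The highest were BCL3, a nuclear inhibitor relative, in the same band as RELB (56.8 per Mb), and LTA and LTB in the band of TNF (42.4). The lowest were PTGS2, the inducible cyclooxygenase (0.200), TRAF6, an adaptor of Toll-like receptors (0.423), and TLR4, the receptor for bacterial lipopolysaccharide (0.625). The 46 genes share 39 bands, of which 31 were above the median, and the share is near that of all protein-coding genes.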

How the data were processed

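The deposited list holds positions on hg19 and 2 columns headed width and peak, which are read here as signal. Per the submitters' processing notes, Trimmomatic, Bowtie2, SAMtools, bedtools and SEACR were used with hg19; for versions, thresholds, a control and the merging step the sources used here give nothing. The deposited signal values are whole numbers with no stated scaling, and total and maximum signal are read from the column order of SEACR. Whether the replicates were separate cultures is not stated. The 9 genes, their windows and the pathway list were chosen with earlier results of these data known. Every member is named, and other pathway genes only where they had a gene model or the 3 highest or lowest band densities, or as neighbours; REL, the only listed subunit, was named after its value was seen.

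A peak counted for a gene if at least 1 bp overlapped the gene body or its 20 kb flanks. The rule's gene lengths differed from RefSeq lengths by at most 1.97 kb. Starts may count from 0. No hg19 sequence or full annotation was used. Gene models came from pyranges 0.1.4, which names no build and was read as hg19 (of 410 background genes matched in RefSeq, 6 share a bound with GRCh38), and GenomicFeatures 1.54.1, and bands from circlize 0.4.16; bands were matched between builds by name where their lengths differed by at most 10%. RefSeq gave neighbours by order and promoter sequences on GRCh38.p14. Python 3.11.15 and pandas 2.3.3 were used, and the interval and motif functions were tested on simulated data. No significance tests were run. Alternatives covered the flank, the start window, weak peaks, the overlap, merging of peaks, the ranking, the bands and the promoter window.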

Additional observations from a re-analysis of the deposited data

How the results depend on the processing

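The flank set the number of peaks: 9 with gene bodies only, 17 with 5 kb and 51 with 50 kb, against 32 with 20 kb. With 50 kb CXCL8 also had peaks, which made 8 of 9 genes, and under the other alternatives it was 7. The share of background genes with a peak was 45.7% for bodies only, 52.7% with 5 kb, 67.2% with 50 kb and 45.2% with only peaks at or above the median total, against 60.7%. The ratio of median total signal to the list was 2.79 with bodies only and 1.21 without the TNF window, an alternative chosen after seeing the data. For the maximum it was 1.05, and for signal per base 0.981, below 1. Without TNF 4.35% of the peaks were in the top 10%. With the 250 bases before the start alone, 0 genes held AGGTCA. Of 45 alternatives over 10 results, 32 stayed within 1.5 times a count or ratio or within the exact 95% binomial interval of a share, which treats neighbouring peaks and genes as independent.

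No paired analysis was possible because both replicates form 1 group and were merged into 1 value per peak; for the same reason neither replicate was left out. Depth is unknown, so an unlisted peak cannot be told apart from low coverage.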

Other observations

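Loci of genes of neutrophil precursors, the stage at which promyelocytic leukemia cells are arrested, were looked at by band as a setting for the values above. The band of MPO, the gene of myeloperoxidase (17q22), held 51 peaks or 6.89 per Mb and ranked 259 of 784. The granule protease genes ELANE and PRTN3 and their inactive relative AZU1 share band 19p13.3, which held 270 peaks or 39.1 per Mb and ranked 20. The band of NFKBIA, at 10.0 per Mb, lay between these bands, and that of TNF, at 42.4, above both. A band holds many genes, and no peak was assigned to any of these 4 genes.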
